A study of Mus musculus with 19 samples.

Results

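The loss of Tet2 across blood cells was compared between CD8 and CD4 T cells that had entered liver metastases of the same mice. The quantity followed throughout is the interaction: the difference between Vav1CreTet2KO and Tet2fl/fl in CD8 cells, minus the same difference in CD4 cells. It used 12 of the 19 libraries of the series, 3 in each of 4 groups, and covered the 10536 of 25639 genes that reached at least 1 RPKM (reads corrected for gene length and sequencing depth) in at least 3 of the 12. The labels give the genotypes by name alone. The Tet2fl/fl mice, with floxed Tet2 and no Cre in the name, are called controls below. The Vav1CreTet2KO mice have Cre under Vav1, which is active across blood cells and therefore also in the myeloid and dendritic cells around the T cells, and are called knockouts. All mice had received Venus-AKTPM/LOH colorectal cancer cells into the spleen 30 days before the metastases were taken, and CD45+ CD3ε+ cells were sorted into CD4+ and CD8α+ fractions. Each of the 6 animals gave 1 CD8 and 1 CD4 library, so values below are listed in the order of animals 1, 2 and 3 of a genotype. Ages and sexes are not in the labels used here.

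TET2 oxidises the methyl group of methylated cytosine, a step on the way to unmethylated DNA. CD8 T cells kill target cells with perforin and granzymes, and under lasting antigen contact they take on an exhausted state with high levels of inhibitory receptors and of the transcription factor TOX. CD4 T cells help other immune cells through ligands and cytokines, and a share of them in tumours are regulatory T cells that carry FOXP3. An interaction asks whether a gene answers the knockout differently in the 2 cell types, which calls in one cell type and not in the other do not show.

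Reads on genes ranged from 707866 to 16451285 in the 12 libraries. The shallowest was the CD4 library of knockout animal 1, with reads on 7761 genes and a median Spearman correlation of 0.65 with the other CD4 libraries used here. The CD8 library of the same animal stood apart as well, with a correlation of 0.733, ribosomal protein genes at 11.0% of reads and mitochondrial genes at 3.09%. In the other 10 libraries these correlations lay between 0.767 and 0.87. List medians below are given with their value without both libraries of that animal, or with their range when single libraries were left out. Cd8a stood at 218, 179 and 229.8 RPKM in CD8 controls and 103, 169 and 113 RPKM in CD8 knockouts, and at no more than 0.792 RPKM in the CD4 libraries. Cd8b1, another CD8 lineage marker, stood at 187, 156 and 198 RPKM in CD8 controls and 160.5, 201 and 172 RPKM in CD8 knockouts. In CD4 cells Cd8b1 stood at 3.33, 1.77 and 7.61 RPKM in controls and 0, 2.79 and 7.73 RPKM in knockouts. Cd4 stood at 99.8, 106 and 112 RPKM in CD4 controls and 39.5, 87 and 122.4 RPKM in CD4 knockouts. In CD8 cells Cd4 was listed at 0 in the 3 controls and at 0.0955, 1.59 and 0.674 RPKM in the knockouts.

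Tet2 (ENSMUSG00000040943, chromosome 3, 133169440 to 133250900 in the deposited tables, of a build that the sources used here do not name) stood at 7.64, 8.06 and 6.57 RPKM in CD8 controls and 6.28, 5.57 and 2.93 RPKM in CD8 knockouts. It stood at 4.23, 7.02 and 3.87 RPKM in CD4 controls and 4.31, 5.65 and 2.77 RPKM in CD4 knockouts. The knockouts lay below all controls in CD8 cells and overlapped with them in CD4 cells. The interaction was -0.35 (95% interval -1.54 to 0.84, limma adjusted p = 0.949), so the size of the Tet2 difference was not distinguishable between the cell types. Such a level sums over all exons, cannot show a deleted one and does not check the genotype labels.

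No gene passed the interaction. With limma on log2(RPKM + 1) and Benjamini-Hochberg adjustment, 0 of 10536 genes reached an adjusted p under 0.05 (0% called), and the smallest adjusted p was 0.397. At an unadjusted p under 0.05 there were 583 genes (5.53%), of which 362 had a higher interaction (3.44%) and 221 a lower one (2.1%). At any p, 6221 genes lay above 0 and 4315 below. The counts of list members above and below 0 given later are to be read beside these. In the same fit the knockout effect by itself passed for 78 genes in CD8 cells (0.74%) and for 0 in CD4 cells, where 1600 genes had an unadjusted p under 0.05. These unequal counts do not show unequal effects. The median standard error of an interaction was 0.67 log2, which gives a median unadjusted 95% interval of 1.44 to either side. Passing after adjustment takes a larger difference at this number of animals. Nrgn, at -5.30, did not pass, with a standard error of 1.335 that was above the median. The absence of calls therefore does not exclude differences above 1.44 log2. On reads recovered from the RPKM values, edgeR's quasi-likelihood test called 1 gene for the interaction, voom 0 and DESeq2 46, of which 19 were higher and 27 lower. Some DESeq2 values were extreme, such as 44.6 for Gm14288, which limma did not test, and 17.3 for Cd63, at 0.50 with limma. Cd4 was among the DESeq2 calls as well (8.48, DESeq2 adjusted p = 1.78e-05), against 1.24 with limma (adjusted p = 0.901). With the animal as a block, limma called 1 gene, Penk (interaction -4.67, adjusted p = 0.029), and with the animal as a correlation between libraries it called 0. The genes below have the smallest unadjusted p overall or in their list, or the largest called CD8 effects. Others are markers of cell types or are marked as chosen after their values were seen. None passed the interaction in limma's main fit, with log2(RPKM + 1), 12 libraries and no block.

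**Figure D1:**
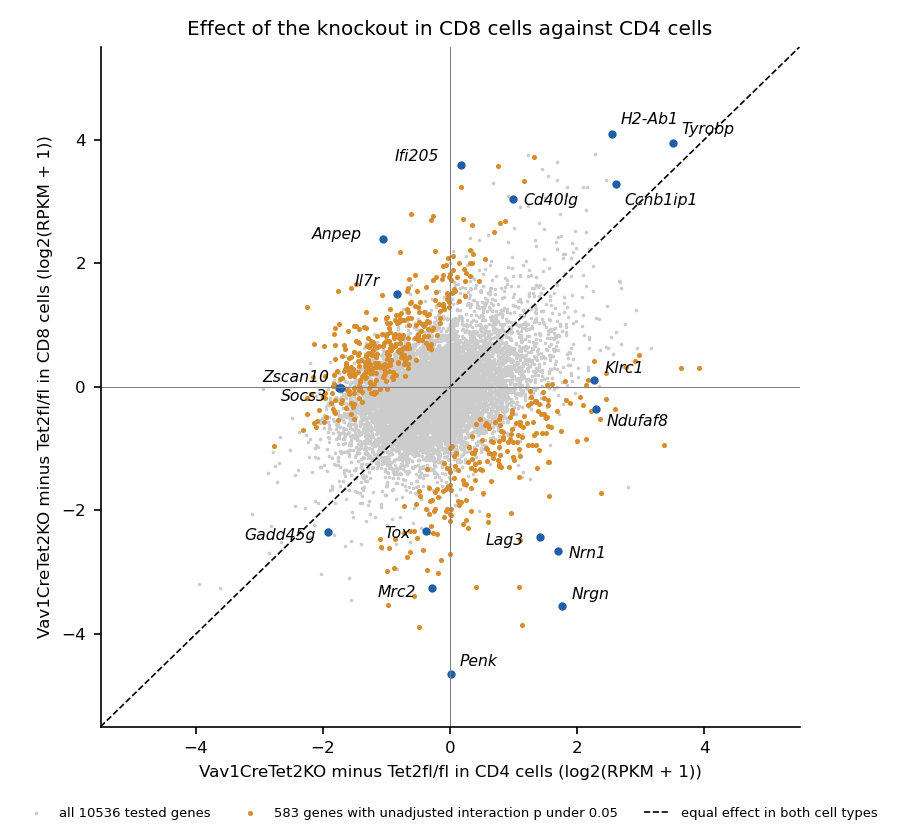
Each of the 10536 tested genes is a point, placed by the difference between knockout and control on the log2(RPKM + 1) scale in CD4 cells (x axis) and in CD8 cells (y axis). Orange points are the 583 genes with an unadjusted interaction p under 0.05, which lie away from the dashed line of equal effect, and blue points are genes described in the text.

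Several of the smallest p-values belonged to genes that were lower in knockout CD8 cells and stood under 1 RPKM in all CD4 libraries. Mrc2, an endocytic collagen receptor, stood at 14.3, 8.74 and 11.5 RPKM in CD8 controls and 0, 0.998 and 0.0575 RPKM in CD8 knockouts, without overlap. In CD4 cells it was at 0.554, 0.165 and 0 RPKM in controls and listed at 0 in the 3 knockouts. Its interaction was -2.98 (95% interval -4.15 to -1.80, limma unadjusted p = 8.42e-05, adjusted p = 0.397). On recovered reads, with the group of CD4 knockouts at 0, the sign turned (2.88 with edgeR and 0.94 with DESeq2). The cause of that turn was not tested. Glp1r, the receptor of glucagon-like peptide 1, had the same form: 7.82, 4.16 and 10.6 RPKM in CD8 controls, 0, 0.824 and 0.0451 RPKM in CD8 knockouts and at most 0.0122 RPKM in any CD4 library. The monocarboxylate transporter family member Slc16a11, the mTORC2-binding protein Prr5l and the calcium pump Atp2b2 likewise stood at or under 0.647 RPKM in all CD4 libraries. Their interactions were -2.44, -2.40 and -2.10, and each fell in CD8 cells by limma (adjusted p = 0.0198, 0.026 and 0.0198). For these 5 genes the interaction restates a fall in CD8 cells in genes that CD4 cells hardly held.

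Other genes with a negative interaction reached more than 1 RPKM in some CD4 libraries. Nrn1, which encodes neuritin, a surface protein linked to neurons and to regulatory T cells, stood at 42.3, 16.3 and 25.6 RPKM in CD8 controls and 2.15, 9.01 and 1.49 RPKM in CD8 knockouts. In CD4 cells it went the other way, with 1.27, 1.6 and 0.161 RPKM in controls and 5.78, 8.82 and 2.58 RPKM in knockouts, and neither pair of groups overlapped. The interaction was -4.37 (95% interval -6.13 to -2.61, limma adjusted p = 0.397). Cib2, a small calcium-binding protein, fell in CD8 cells from 15.9, 9.16 and 18.7 to 0, 2.84 and 0.0609 RPKM (limma adjusted p = 0.026), while CD4 controls had 0, 0.33 and 0.0723 and CD4 knockouts 0, 2.32 and 3.15 RPKM. It was the 1 gene called after quantile normalization. Pacsin1, a protein of endocytic membranes, stood at 22.4, 17.7 and 22.2 RPKM in CD8 controls against 9.86, 10.1 and 4.6 RPKM in CD8 knockouts. The CD4 libraries had 6.47, 2.94 and 5.71 RPKM in controls against 8.57, 11.7 and 10 RPKM in knockouts, again apart in opposite directions. Eea1, an early endosome tether, fell in CD8 cells (27.8, 16.5 and 17.2 to 3.01, 6.54 and 2.25 RPKM, limma adjusted p = 0.0451). Its CD4 levels were 12.1, 9.63 and 9.58 RPKM in controls and 21.2, 26.7 and 7.18 RPKM in knockouts, which overlapped. Nrgn, the calmodulin-binding protein neurogranin, had the lowest interaction of the named genes (-5.30) and spread widely, with 5.49, 21.3 and 0.961 RPKM in CD8 knockouts and 51.4, 11.8 and 2.07 RPKM in CD4 knockouts.

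Penk encodes proenkephalin, the precursor of opioid peptides, and is made by activated T cells. It fell in CD8 cells from 271, 197 and 121 RPKM to 5.63, 34.9 and 0.748 RPKM (limma adjusted p = 0.0322), the largest CD8 change of any called gene that was named. In CD4 cells the levels were 64.8, 28.4 and 30.5 RPKM in controls and 53.3, 101 and 10.4 RPKM in knockouts, which overlapped (difference 0.02). Within each animal, the CD8 level minus the CD4 level of Penk was 2.05, 2.75 and 1.95 log2 in the controls and -3.04, -1.51 and -2.70 log2 in the knockouts. The 6 animals thus fell into 2 groups that did not overlap, as they did for 14.2% of all tested genes (7.91% with knockouts higher and 6.27% with knockouts lower).

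Among the receptors and regulators of exhaustion, a few members had negative interactions at an unadjusted p under 0.05 and 1 had a positive one. None passed with limma. Lag3, whose product restrains T cells on contact with MHC class II, stood at 81.7, 39.8 and 51.2 RPKM in CD8 controls and 6.46, 27.5 and 4.38 RPKM in CD8 knockouts, and every knockout lay below every control. The CD4 groups, at 5.17, 2.01 and 8.33 RPKM in controls and 34.6, 10.1 and 7.23 RPKM in knockouts, overlapped. Its interaction was -3.83 (95% interval -5.82 to -1.85, limma adjusted p = 0.603, DESeq2 adjusted p = 0.016 on recovered reads), and -2.96 without both libraries of knockout animal 1, which had the highest CD4 level. Of 15 tested inhibitory receptors, 11 had an interaction below 0, 3 of them at an unadjusted p under 0.05 (2.1% of all genes), and 4 lay above 0. The other 2 were Cd244a (-1.89) and Cd200r1 (-1.20), both receptors that dampen lymphocytes and related cells. Cd200r1 fell in CD8 cells (-1.93, limma adjusted p = 0.0343) and differed by -0.73 in CD4 cells. The median interaction of the list was -0.49, against 0.16 for all tested genes, and -0.24 against -0.04 without both libraries of knockout animal 1. It was -0.32 without the CD8 library of knockout animal 1 and -0.77 without that of knockout animal 2.

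Tox itself fell in CD8 cells, from 44.5, 25.1 and 33.7 to 2.6, 10.2 and 6.87 RPKM (limma adjusted p = 0.0198). The CD4 levels were 13.9, 18.3 and 12.8 RPKM in controls and 12.6, 12.1 and 9.27 RPKM in knockouts, so that the knockouts lay below the controls there too, with a mean difference of -0.37 log2. The interaction of Tox was -1.97 (95% interval -3.19 to -0.74, limma unadjusted p = 0.00395, adjusted p = 0.693). Its relative Tox2 and the inhibitory receptor Pdcd1, both chosen after their values were seen, were lower in both cell types. Tox2 stood at 10.5, 12.3 and 7.96 RPKM in CD8 controls, 1.01, 1.91 and 0.334 RPKM in CD8 knockouts, 7.42, 8.78 and 8.23 RPKM in CD4 controls and 1.91, 2.56 and 1.89 RPKM in CD4 knockouts, with an interaction of -0.93 (-2.11 to 0.25). For Pdcd1, which encodes PD-1, the differences were -1.87 in CD8 cells and -1.38 in CD4 cells and the interaction was -0.49 (-1.81 to 0.83). Of 15 tested regulators linked to exhaustion, 9 had an interaction below 0 and 6 above. There was 1 below and 1 above at an unadjusted p under 0.05 (2.1% and 3.44% of all genes). Their median interaction was -0.55. That median was -0.38 without both libraries of knockout animal 1, -0.21 without the CD4 library of control animal 3 and -0.22 without the CD8 library of knockout animal 3. Nr4a1, a nuclear receptor induced by the T cell receptor, was on the other side (1.34, limma unadjusted p = 0.00787, adjusted p = 0.801). Rbpj, the effector of Notch signalling, had -1.15.

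**Figure D2:**
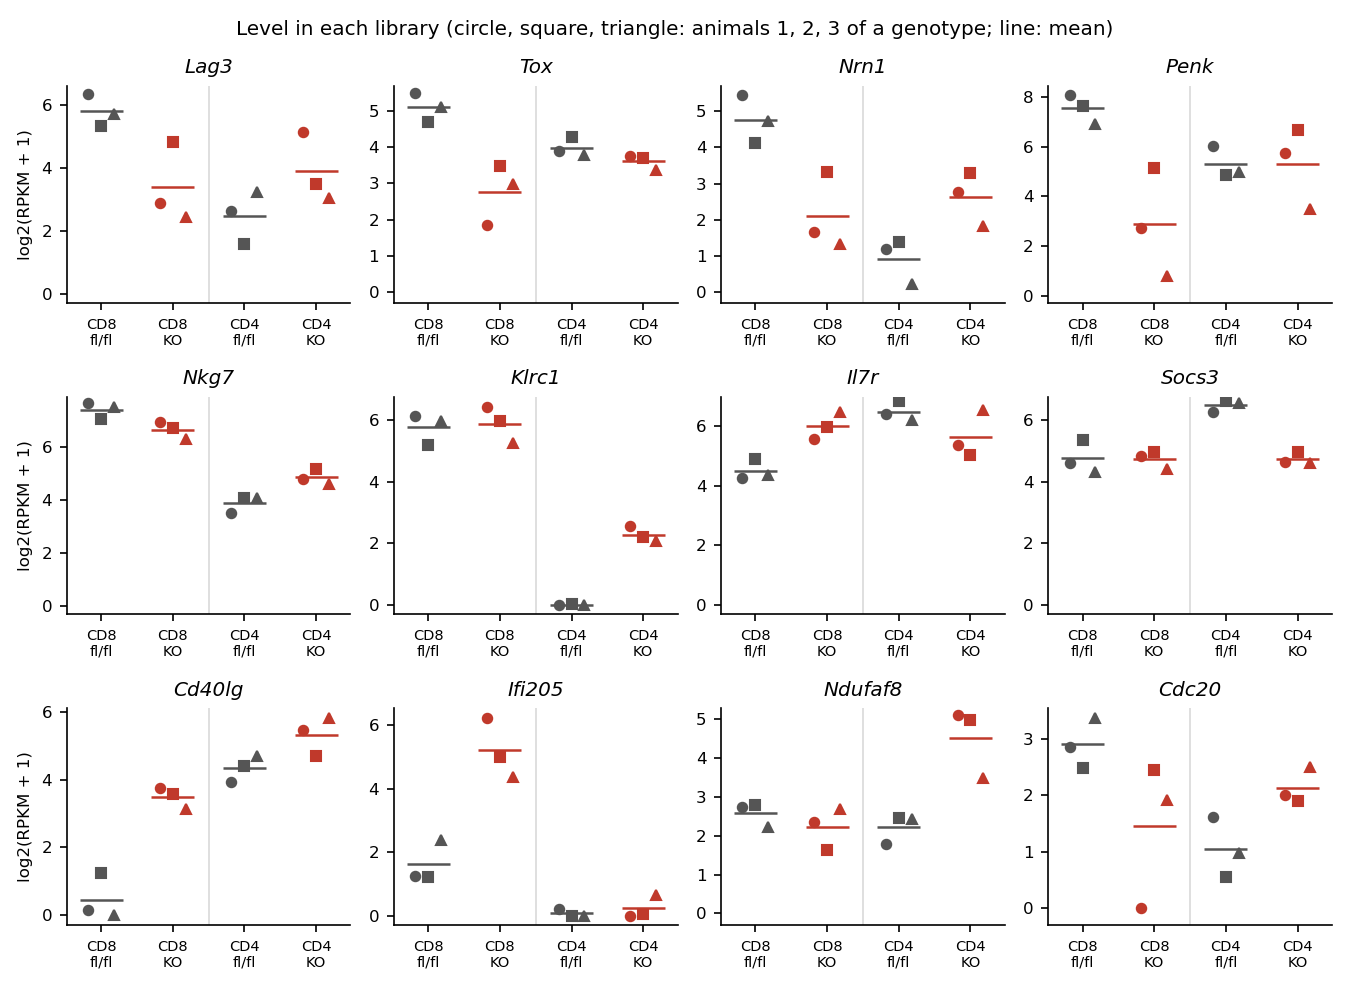
Levels of 12 genes on the log2(RPKM + 1) scale (y axis) in CD8 and CD4 libraries of control (fl/fl, grey) and knockout (KO, red) mice, with 1 symbol per library and the mean as a line. Lag3, Tox, Nrn1 and Penk were lower in the 3 knockout CD8 libraries than in all CD8 controls, while Klrc1, Socs3 and Ndufaf8 differed in the CD4 libraries and overlapped in CD8 cells.

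Genes of killer cells moved apart in a different way: some were lower in knockout CD8 cells, and others were higher in knockout CD4 cells. Klrc1 encodes NKG2A, an inhibitory receptor of natural killer and CD8 T cells. CD8 controls had 68.7, 35.7 and 61.5 RPKM and CD8 knockouts 85.2, 61.1 and 37.1 RPKM, which overlapped. CD4 controls had 0, 0.0149 and 0 RPKM and CD4 knockouts 4.91, 3.65 and 3.16 RPKM, which did not. The interaction was -2.16 with limma (adjusted p = 0.609), and it passed on recovered reads (edgeR's quasi-likelihood adjusted p = 2.15e-05, DESeq2 adjusted p = 9.57e-09) and with a pseudocount of 0.1, where differences among low values count for more. Nkg7, a protein of cytotoxic granules, stood at 201, 129 and 180.5 RPKM in CD8 controls and 121.8, 102 and 76.6 RPKM in CD8 knockouts. It stood at 10.3, 15.7 and 15.9 RPKM in CD4 controls and 26.4, 34.7 and 23.1 RPKM in CD4 knockouts, so that it was lower in one cell type and higher in the other without overlap (interaction -1.72, limma adjusted p = 0.609). Cd8a, at 0, 0.079 and 0.232 RPKM, was near 0 in the same CD4 knockouts. Cd8b1, another CD8 lineage marker, stood there at 0, 2.79 and 7.73 RPKM, against 3.33, 1.77 and 7.61 RPKM in CD4 controls. The part of CD8 cells in the CD4 sorts was not tested. The natural killer cell markers Ncr1 and Klrb1c stood there at 0, 0.275 and 1.35 and 0, 0.764 and 2.92 RPKM, and the 6 tested natural killer markers summed to 20.6, 8.09 and 34.1 RPKM in CD4 controls and 147, 219 and 68.5 RPKM in CD4 knockouts, most of it Tyrobp and Fcer1g, which myeloid cells share. The part of such cells in the result was not tested.

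Prf1, which encodes perforin and was chosen after its values were seen, had 118, 44.3 and 65.1 RPKM in CD8 controls and 4.43, 8.56 and 11.9 RPKM in CD8 knockouts. Its CD4 levels of 1.89, 0.206 and 2.87 and 0, 0.451 and 5.22 RPKM overlapped, and the interaction was -2.82 (limma adjusted p = 0.812). Cx3cr1, the fractalkine receptor found on terminal effectors, fell in CD8 cells (from 24.1, 12.2 and 14.2 to 1.26, 2.2 and 1.24 RPKM, limma adjusted p = 0.0137) and had an interaction of -2.09. Crtam, an adhesion protein of activated CD8 cells, had one of -2.67. Of 21 tested cytotoxic effector genes, 15 had an interaction below 0 and 6 above, and 5 below and 0 above had an unadjusted p under 0.05 (2.1% and 3.44% of all genes). Their median interaction was -0.64. It was -0.96 without both libraries of knockout animal 1, -0.28 without the CD8 library of knockout animal 3 and -0.42 without the CD4 library of control animal 2. The median effect was -0.01 in CD8 cells and -0.04 in CD4 cells. Medians of effects do not subtract to the median of the interactions, since different members set each.

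The secreted chemokines of T cells were few and widely spread. Ccl1, a chemokine that attracts cells with CCR8, stood at 291, 260 and 213 RPKM in CD8 controls and 42, 50.6 and 1.42 RPKM in CD8 knockouts, against 8.23, 3.03 and 12.8 and 61.8, 10.5 and 6.43 RPKM in CD4 cells. Its interaction was -4.98 (standard error 1.39, limma adjusted p = 0.671). Xcl1, which attracts cross-presenting dendritic cells, had an interaction of -2.98 and overlapping groups in both cell types. Of 7 tested chemokines 6 lay below 0, with a median of -1.09. It was -2.03 without both libraries of knockout animal 1, -1.99 without the CD4 library of that animal and 0.01 without the CD4 library of knockout animal 2. Ifng, chosen after its values were seen, had 164, 86 and 138 RPKM in CD8 controls, 161, 107 and 57 RPKM in CD8 knockouts, 26.5, 13.8 and 21.5 RPKM in CD4 controls and 29.1, 34.9 and 38.7 RPKM in CD4 knockouts. The CD4 groups did not overlap and the CD8 groups did (interaction -1.07, -2.25 to 0.12). Cxcr6, a receptor of tissue-resident T cells, had an interaction of -1.85, and Cxcr4, a receptor for retention in marrow and tissue, one of 1.01.

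The 13 tested costimulatory receptors and ligands had no common direction: 7 had an interaction above 0 and 6 below, with a median of 0.01 that ranged from -0.57 to 0.27 when single libraries were left out. Tnfrsf9, or 4-1BB, a receptor of activated T cells, fell in CD8 cells from 43.7, 30 and 49.5 to 1.57, 5.51 and 1.69 RPKM (limma adjusted p = 0.0137). CD4 controls had 28.8, 24.9 and 26.6 RPKM and CD4 knockouts 12.1, 34.9 and 4.92 RPKM, which overlapped (interaction -2.56, limma adjusted p = 0.727). Tnfrsf4, or OX40, stood at 43.9, 36.9 and 32.7 RPKM in CD8 controls and 0.123, 15 and 0 RPKM in CD8 knockouts, and at 164, 158 and 135 and 191, 210.3 and 31.5 RPKM in CD4 cells (interaction -3.40). Cd40lg, through which helper cells license dendritic and B cells, rose in CD8 cells from 0.0945, 1.35 and 0 to 12.5, 10.9 and 7.82 RPKM (limma adjusted p = 0.0137). Among CD4 cells the level was 14.3, 20.3 and 25.3 RPKM in controls and 43.3, 25.3 and 56.2 RPKM in knockouts, so that each knockout lay above each control there too, with 25.27 against 25.31 RPKM for the closest pair (interaction 2.05, limma adjusted p = 0.693). Cd4 in the same CD8 knockouts was 0.0955, 1.59 and 0.674 RPKM, against 39.5, 87 and 122.4 RPKM in the CD4 knockouts, while Cd40lg was 12.5, 10.9 and 7.82 RPKM against 43.3, 25.3 and 56.2 RPKM. The part of CD4 cells among the sorted CD8 cells in this result was not tested. Of the list 1 member lay above 0 and 2 below at an unadjusted p under 0.05 (3.44% and 2.1% of all genes).

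The median interaction of the naive and memory T cell genes had the opposite sign to the medians of the 2 exhaustion lists. Il7r, the receptor for the survival cytokine interleukin 7, stood at 18.1, 29.1 and 19.5 RPKM in CD8 controls and 46.4, 62 and 89 RPKM in CD8 knockouts, and each knockout lay above each control. The CD4 levels were 84.7, 115 and 72.9 RPKM in controls and 40.4, 31.8 and 93.4 RPKM in knockouts, where animals 1 and 2 were low and animal 3 was not. The interaction was 2.34 (95% interval 1.14 to 3.55, limma unadjusted p = 0.000935, adjusted p = 0.603). Tcf7, which encodes TCF1, the factor of stem-like T cells, had 25.6, 44.9 and 34.6 RPKM in CD8 controls and 48.7, 54.9 and 148 RPKM in CD8 knockouts, and 104, 119.6 and 178 against 52.5, 41.2 and 208 RPKM in CD4 cells. Its interaction was 1.84 (0.18 to 3.50), and that of Klf3, a repressor found in resting lymphocytes, was 1.92. Of 19 tested genes in this list 15 had an interaction above 0 and 4 below, and 6 above and 0 below had an unadjusted p under 0.05 (3.44% and 2.1% of all genes). The median interaction was 0.87, from a median of 0.74 in CD8 cells and -0.11 in CD4 cells. It was 0.62 without both libraries of knockout animal 1, and 0.57 without its CD4 library alone.

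The median CD8 level minus the CD4 level over that list was -1.33, -0.80 and -1.50 log2 in the 3 control animals. In the 3 knockout animals it was -0.05, -0.16 and -0.40 log2. CD8 cells thus stood below CD4 cells for these genes in all 6 animals, and the gap was smaller in each knockout than in each control. Members of a list are not independent of each other, and these 6 values are given as a description.

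**Figure D3:**
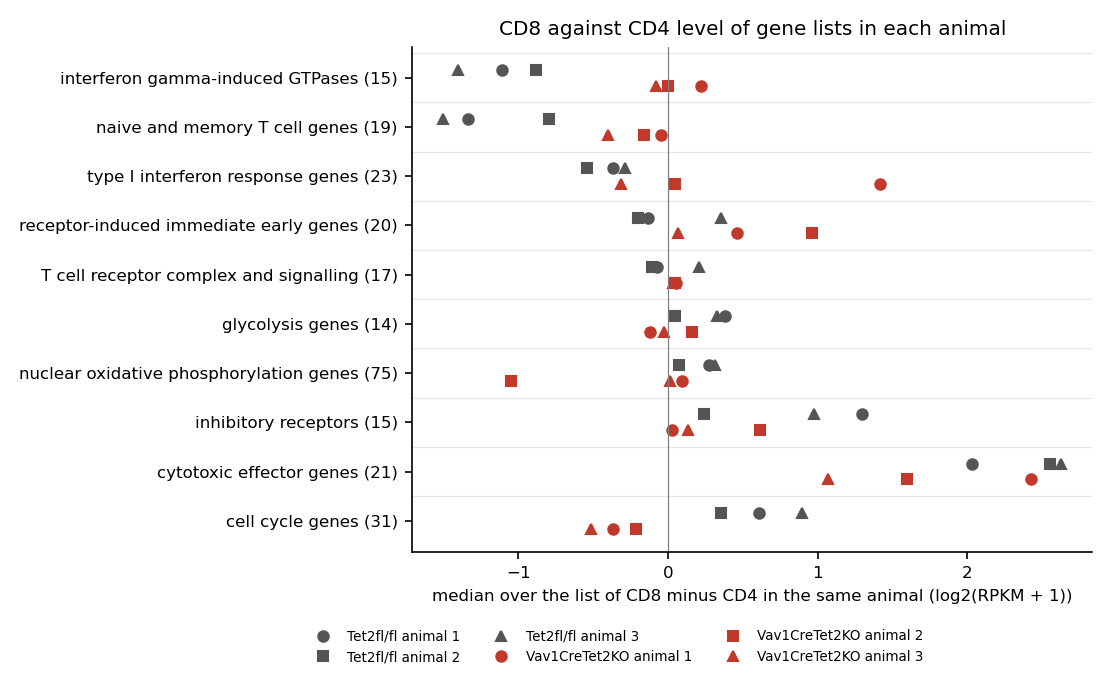
For 10 gene lists (tested members in brackets), the median over the list of the CD8 level minus the CD4 level in the same animal on the log2(RPKM + 1) scale (x axis), with 1 symbol per animal. Control (grey) and knockout (red) animals did not overlap for the interferon gamma-induced GTPases, the naive and memory genes and the cell cycle genes, and they overlapped for the T cell receptor genes.

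Several positive interactions came from lower levels in knockout CD4 cells, with overlapping levels in CD8 cells. Socs3, a feedback inhibitor of cytokine signalling through STAT3, stood at 76.5, 99 and 94.7 RPKM in CD4 controls and 24.2, 30.6 and 23.5 RPKM in CD4 knockouts. In CD8 cells it stood at 23.6, 39.9 and 19.2 RPKM in controls and 27.8, 30.1 and 20.5 RPKM in knockouts, a difference of -0.02 (interaction 1.73, 95% interval 0.77 to 2.68, limma adjusted p = 0.641). Fos and Egr1, transcription factors switched on within minutes of receptor signalling, had CD4 levels of 268, 287 and 223 and 48.1, 68.4 and 59.1 RPKM in controls. They had 23.6, 106 and 101 and 17.9, 18.9 and 20.4 RPKM in CD4 knockouts, below all controls, while their CD8 groups overlapped (interactions 1.83 and 1.30). Of 20 tested immediate early genes 14 lay above 0, beside 6221 of all 10536 tested genes. At an unadjusted p under 0.05 there were 5 above and 0 below (3.44% and 2.1% of all genes). The median of the list was 0.53, 0.55 without both libraries of knockout animal 1, and 0.27 without the CD8 library of knockout animal 2. The median effect was -0.13 in CD8 cells and -0.61 in CD4 cells. Junb, a partner of Fos chosen after its values were seen, was higher in knockout CD8 cells (376, 395 and 373 against 472, 574 and 448 RPKM) and lower in knockout CD4 cells (641, 684 and 585 against 322, 436 and 462 RPKM), with an interaction of 1.04. Nr4a1 had the same form, at 100.2, 94.1 and 80.8 against 156, 243 and 107 RPKM in CD8 cells and 212, 203 and 169 against 119.6, 144 and 135 RPKM in CD4 cells.

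Further genes had a positive interaction. Zfp36l1 and Samhd1 among them were chosen after their values were seen. Itgae, the integrin CD103 that binds epithelium, had CD4 levels of 79.5, 70.1 and 46.8 RPKM in controls and 10.4, 28.4 and 9.13 RPKM in knockouts (interaction 1.46). Cd2, an adhesion receptor, had an interaction of 0.89, while the 17 tested genes of the T cell receptor complex and its signalling had a median of -0.04 (-0.15 to 0.15 without single libraries). Pim1, a kinase induced through STAT5, had an interaction of 1.27, and Cd69, a marker of recent activation and of tissue residence, one of 1.28. Zfp36l1, which speeds the decay of messenger RNA, stood at 54.6, 47.2 and 48.2 against 83.7, 77.9 and 63 RPKM in CD8 cells and at 159.7, 169.6 and 93.6 against 50.1, 80.2 and 77.5 RPKM in CD4 cells (1.56). Samhd1, which breaks down deoxynucleotides, stood at 13.4, 11.8 and 15.7 against 35, 28.3 and 24.6 RPKM in CD8 cells and at 49.6, 47.5 and 48.4 against 27.1, 43 and 34.9 RPKM in CD4 cells (1.53). For both, the groups did not overlap in either cell type and the directions were opposite. Zfp36l1 and Samhd1 were among the genes that DESeq2 called on recovered reads (adjusted p = 0.0203 and 0.001), and limma's adjusted p was 0.671 and 0.671. Foxp3, the regulatory T cell factor, is given as a marker of those cells and was also chosen after its values were seen. It stood at 76.6, 77.4 and 51.7 RPKM in CD4 controls and 6.15, 53.6 and 20 RPKM in CD4 knockouts, so that 2 of the 3 knockouts lay below all controls. In CD8 cells it stood at 2.23, 4.04 and 3.21 and 0.852, 0.818 and 0.477 RPKM, a difference of -1.26. Its interaction was 0.50 (-1.18 to 2.18), with a sign that turned under 6 alternatives, among them edgeR (-0.80) and DESeq2 (-0.78). Fewer cells of a type and less RNA per cell cannot be told apart in bulk samples, and the part of this shift in the CD4 values was not tested.

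The GTPases that interferon gamma induces against pathogens in cells lay almost all on the positive side. Of 15 tested members 14 had an interaction above 0 and 1 below, with 3 above at an unadjusted p under 0.05 (3.44% of all genes) and none passing with limma. The median was 1.09, from 0.25 in CD8 cells and -0.83 in CD4 cells, and 0.94 without both libraries of knockout animal 1. Irgm1 stood at 14.7, 16.2 and 16.3 RPKM in CD4 controls and 4.7, 8.31 and 11 RPKM in CD4 knockouts, against 6.28, 9.88 and 6.77 and 14.7, 12.5 and 7.55 RPKM in CD8 cells (interaction 1.48). Gbp6 stood at 32.7, 27.2 and 35.4 RPKM in CD4 controls and 16.4, 18.4 and 14.9 RPKM in CD4 knockouts, and its CD8 groups overlapped (1.03). Iigp1 had an interaction of 1.88 (0.27 to 3.49). The median CD8 level minus CD4 level of the list was -1.11, -0.88 and -1.40 log2 in control animals and 0.22, 0.00 and -0.08 log2 in knockout animals. The type I interferon response genes had a median of 0.70 with 20 of 23 above 0, but it was 0.46 without the CD4 library of control animal 3 and 0.28 without both libraries of knockout animal 1, whose CD8 library held the highest summed level of the CD8 libraries (458 RPKM). Oas3, which senses double-stranded RNA, had 1.53.

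Cell cycle genes had the largest negative median among the lists of more than 10 genes. Of 31 tested members 28 had an interaction below 0 and 3 above, 4 below and 0 above at an unadjusted p under 0.05 (2.1% and 3.44% of all genes), and none passed with limma. The median of -0.96 joined a median of -0.61 in CD8 cells with one of 0.43 in CD4 cells. It was -0.91 without both libraries of knockout animal 1 and ranged from -1.25 to -0.56 when single libraries were left out, with -0.56 without the CD8 library of knockout animal 3 and -0.62 without the CD4 library of knockout animal 2. The median CD8 level minus CD4 level was 0.61, 0.36 and 0.90 log2 in control animals and -0.37, -0.21 and -0.52 log2 in knockout animals. CD8 cells thus held more of these transcripts than CD4 cells in each control, and less in each knockout. For 14 members the within-animal differences of the 2 genotypes did not overlap and the knockouts were lower, set against 6.27% of all genes.

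Cdc20, an activator of the complex that ends mitosis, stood at 6.26, 4.58 and 9.39 RPKM in CD8 controls and 0, 4.42 and 2.77 RPKM in CD8 knockouts, where 3 reads would give 0.0709 RPKM in the library at 0. In CD4 cells it stood at 2.05, 0.461 and 0.968 RPKM in controls and 3.02, 2.72 and 4.68 RPKM in knockouts (interaction -2.55, limma adjusted p = 0.781). The mitotic kinase Bub1 and cyclin A2 (Ccna2) had -1.93 and -1.68. Mki67, the proliferation marker, and Top2a, which untangles DNA, were chosen after their values were seen and had -1.19 (-2.68 to 0.29) and -1.21 (-2.66 to 0.24). Mki67 stood at 46.2, 33.2 and 48.3 RPKM in CD8 controls, 34.9, 40.6 and 8.15 RPKM in CD8 knockouts, 39.3, 25.5 and 28.8 RPKM in CD4 controls and 34.9, 60.4 and 28.7 RPKM in CD4 knockouts, so that the low CD8 value was that of knockout animal 3. The linker histones H1f4 and H1f5, also chosen after their values were seen, were higher in knockout CD4 cells. H1f4 had 30.3, 28.5 and 35.5 RPKM in CD4 controls and 123, 114 and 58.3 RPKM in CD4 knockouts, with overlapping CD8 groups (interaction -1.77, limma adjusted p = 0.671, DESeq2 adjusted p = 0.025). H1f5 had an interaction of -2.88 (-4.60 to -1.15).

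Nuclear genes of oxidative phosphorylation were mostly on the negative side as well, with 57 of 75 below 0, 3 of them at an unadjusted p under 0.05 (2.1% of all genes). Ndufaf8, an assembly factor of respiratory complex I that was named by its own p, had 2.47, 4.51 and 4.42 RPKM in CD4 controls and 33.8, 30.6 and 10.2 RPKM in CD4 knockouts. Its CD8 groups of 5.72, 6 and 3.67 and 4.1, 2.1 and 5.5 RPKM overlapped (interaction -2.66, limma adjusted p = 0.609). Cox7a2, Ndufa2 and Atp5g3, subunits of complexes IV, I and V, had -1.92, -2.11 and -1.52. The list's median was -0.51, and -0.69 without both libraries of knockout animal 1. It was -0.12 without the CD4 library of knockout animal 2 and also without the CD8 library of knockout animal 3. It was -0.27 without the CD4 library of knockout animal 1, -0.31 without the CD8 library of control animal 1, and -0.83 without the CD4 library of knockout animal 3 or the CD8 library of knockout animal 1. The sum of its RPKM was 4875, 5346 and 1291 in CD4 knockouts against 1658, 1220 and 1490 in CD4 controls. In CD8 cells the sums were 5766, 1959 and 1357 in knockouts and 1956, 1336 and 1798 in controls. Ribosomal protein genes took 8.84%, 8.86% and 6.29% of reads in CD4 knockouts and 11.0%, 5.30% and 7.97% in CD8 knockouts, against 4.31% to 5.93% in the 6 controls. They were high beside high sums in knockout animal 1 and in the CD4 library of animal 2, and above the controls without a high sum in both libraries of animal 3. The part of that composition in the result was not tested. Glycolysis genes had a median of -0.38 over 14 members (-0.58 to -0.11 without single libraries), with none at an unadjusted p under 0.05.

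**Figure D4:**
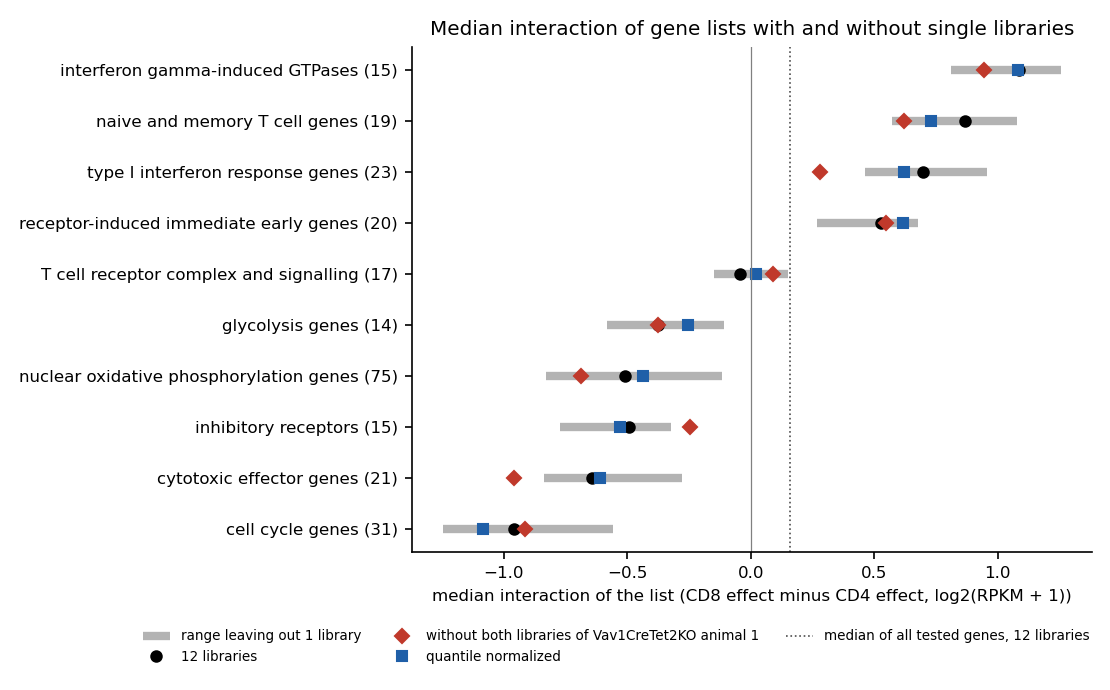
Median interaction of the same 10 gene lists (x axis, CD8 effect minus CD4 effect on the log2(RPKM + 1) scale) with all 12 libraries (black), without both libraries of knockout animal 1 (red) and after quantile normalization (blue), and the range when single libraries were left out (grey bars). The medians of 9 of the 10 lists kept their sign, while that of the T cell receptor genes lay on both sides of 0.

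Several genes known from dendritic and other antigen-presenting cells had positive interactions, but not all markers of such cells did. Of 10 tested macrophage and monocyte markers, 7 had an interaction below 0 and 3 above, with a median of -0.57. That median was -0.40 without both libraries of knockout animal 1 and ranged from -0.91 to 0.10 when single libraries were left out. Ifi205, an interferon-induced gene of dendritic cells, rose in CD8 cells from 1.35, 1.34 and 4.18 to 74.1, 30.9 and 19.9 RPKM (limma adjusted p = 0.0137) and stayed at or under 0.579 RPKM in CD4 cells (interaction 3.42, adjusted p = 0.503). Anpep, the aminopeptidase CD13 of myeloid cells, rose in CD8 cells from 1.35, 0.439 and 1.59 to 12.6, 9.99 and 7.44 RPKM (limma adjusted p = 0.0372). CD4 controls had 2.45, 0.06 and 2.33 and CD4 knockouts 0, 0.0269 and 0.316 RPKM (interaction 3.44). The progenitor and endothelial marker Cd34 rose in CD8 cells from 0.226, 0 and 0.112 to 4.91, 4.09 and 1.69 RPKM (limma adjusted p = 0.0206) and was listed at 0 in CD4 knockouts (2.08). Cpq, a secreted peptidase, and Cyp27a1, an enzyme of sterol oxidation, had interactions of 3.14 and 2.00 from low levels. Naaa, a lipid amidase of conventional dendritic cells, stood at 3.72, 1.93 and 31.8 RPKM in CD8 controls and 50, 66.5 and 43.6 RPKM in CD8 knockouts, and at 2.07, 1.66 and 1.7 and 1.34, 0.264 and 1.09 RPKM in CD4 cells (3.41). Flt3, a kinase on which dendritic cell development depends, had 2.51.

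The 10 conventional dendritic cell markers summed to 16.8, 13.9 and 66.7 RPKM in CD8 controls and 125, 174 and 106 RPKM in CD8 knockouts. In CD4 cells they summed to 12.2, 6.24 and 14.8 and 28.2, 27.3 and 27.4 RPKM, with Flt3 at 0 in knockout animal 1. The median interaction of these markers was 1.00 (1.22 without both libraries of knockout animal 1). Of the 10, 7 lay above 0 and 3 below, beside 6221 above 0 of all 10536 tested genes. Of the 8 MHC class II genes, 5 rose in CD8 cells with limma (0.266% of all genes were called higher there) and none was called in CD4 cells. Their median effect was 3.23 in CD8 cells and 1.58 in CD4 cells, and all 8 had an interaction above 0 (median 1.47, and 1.15 without both libraries of knockout animal 1). H2-DMb1, which helps load peptides, rose in CD8 cells from 0, 0.369 and 1.82 to 29.3, 27 and 9.33 RPKM and stood at 0.762, 1.07 and 1.51 and 5.4, 2.06 and 6.32 RPKM in CD4 cells (interaction 2.39, limma adjusted p = 0.781). H2-Oa, a regulator of peptide loading, went the other way in CD4 cells, with 4.59, 9.41 and 4.66 RPKM in controls and 0, 2.53 and 2.29 RPKM in knockouts, without overlap. Its CD8 levels of 5.16, 5.99 and 4.86 and 7.29, 5.87 and 7.26 RPKM overlapped (interaction 1.91). H2-DMa, the partner of H2-DMb1, differed by 1.54 in CD8 cells and 0.08 in CD4 cells (interaction 1.47). H2-Aa and H2-Ab1, the chains that present the peptide, rose in CD8 cells by 3.77 and 4.09 and differed by 2.29 and 2.55 in CD4 cells, with interactions of 1.48 (-0.38 to 3.35) and 1.54 (-0.66 to 3.75). The plasmacytoid dendritic cell marker Siglech stood at 1.36, 0.804 and 5.64 RPKM in CD8 controls and 25.1, 38.6 and 14.6 RPKM in CD8 knockouts, without overlap. It stood at 5.57, 4.34 and 26.6 RPKM in CD4 controls and 8.48, 39.3 and 56.6 RPKM in CD4 knockouts, which overlapped. The 8 tested plasmacytoid markers had a median interaction of 0.98, which was -0.23 without both libraries of knockout animal 1 and 0.21 without its CD4 library alone. The share of these transcripts that came from other cells in the sorts was not tested.

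Of the 28 genes that rose in CD8 cells (0.266% of all genes), 25 lay above 0 in CD4 cells too. Their median was 2.89 in CD8 cells, 1.23 in CD4 cells and 1.43 for the interaction. Of the 50 that fell in CD8 cells (0.475%), 40 lay below 0 in CD4 cells, where their median was -0.48 against -2.30 in CD8 cells. Of all tested genes, 3605 lay above and 6922 below 0 in CD4 cells. The genes were chosen on their CD8 values, which enter the interaction, so a smaller CD4 median is what the choice itself favours and is given as a description. The control and knockout animals are also the same in both comparisons.

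Other genes called in CD8 cells lay on the same side in CD4 cells with smaller interactions. Tyrobp, the ITAM-bearing adaptor of innate immune receptors, rose in CD8 cells from 0.708, 3.43 and 6.56 to 130.4, 55 and 27.9 RPKM (limma adjusted p = 0.0241) and stood at 9.63, 2.04 and 16.7 and 114, 156 and 46.2 RPKM in CD4 cells. Its interaction was 0.44 (-1.76 to 2.64), and its sign turned when single libraries were left out. The next 4 genes were chosen after their values were seen. Ccnb1ip1, a meiotic ubiquitin ligase, stood at 18.2, 13.8 and 41.8 against 504, 132 and 169 RPKM in CD8 cells and 34, 32.6 and 48.3 against 266, 333 and 149 RPKM in CD4 cells (0.67). Gadd45g, a stress-induced gene of activated T cells, stood at 35, 26.4 and 28.1 against 4, 9.3 and 3.26 RPKM and 37.1, 34.6 and 18.7 against 8.09, 5.74 and 7.07 RPKM in the same order (-0.43). Cdk6, a kinase of cell cycle entry, differed by -2.10 in CD8 and -1.53 in CD4 cells, and Ccr2, a receptor for inflamed tissue, by 2.38 and 1.33. The intervals of these interactions were -0.86 to 2.20 for Ccnb1ip1, -1.60 to 0.75 for Gadd45g, -1.77 to 0.63 for Cdk6 and -0.05 to 2.14 for Ccr2, so effects that differ by more than 2-fold are within them.

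Across the transcriptome, 46 genes (0.437%) had libraries that did not overlap in either cell type with opposite directions, 33 higher in knockout CD8 and lower in knockout CD4 cells and 13 the reverse. Non-overlapping groups with the same direction were found in 467 genes (4.43%), of which 383 were lower and 84 higher in both. Among the 362 genes with a positive interaction at an unadjusted p under 0.05, the effects had opposite signs in 283, and the CD4 effect was the larger in 233. Among the 221 with a negative one, the signs were opposite in 156 and the CD8 effect was the larger in 136. The positive ones thus came more often from lower values in CD4 knockouts, the group that held the shallowest library. The median interaction of all tested genes was 0.16 with that library and -0.04 without it. The part of its depth in these counts was not tested. Gpatch3, a protein with an RNA-linked G-patch domain, and Map2k6, a kinase upstream of p38, had positive interactions with the larger effect in CD4 cells. Gpatch3 had 2, 3.17 and 0.8 against 4.61, 3.65 and 4.7 RPKM in CD8 cells and 3.36, 3.93 and 4.73 against 0, 0.829 and 1.37 RPKM in CD4 cells (2.52), and Map2k6 1.86, 1.79 and 1.42 against 3.86, 4.05 and 2.72 and 3.33, 4.13 and 3.07 against 0, 0.734 and 1.39 RPKM (2.23). The CD4 library at 0 is the shallow one, where 3 reads, the limit that a count of 0 allows, would give 0.81 and 0.544 RPKM for counting error alone. Without both libraries of that animal the interactions were 2.12 and 1.83. Zscan10, a zinc finger protein, was near 0 in CD8 cells and stood at 2.97, 2.25 and 2.54 RPKM in CD4 controls against 0, 0 and 0.302 RPKM in CD4 knockouts (1.70).

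For other groups the difference between the cell types was small or rested on single libraries. Lists can share members, such as Cxcr5 and Ccr6 in the helper and chemokine receptor lists. The median interaction was -0.20 for 16 regulatory T cell genes, -0.15 for 11 helper lineage genes and -0.06 for 13 chemokine receptors, and each of these medians changed sign when single libraries were left out (-0.75 to 0.51, -0.42 to 0.06 and -0.35 to 0.30). Capg, an actin-capping protein in the regulatory T cell list that activated CD8 cells also make, fell in CD8 cells (limma adjusted p = 0.0344) with an interaction of -1.47. Il1r2, a decoy receptor for interleukin 1, fell in CD8 cells from 13.9, 12.8 and 5.84 to 0.0444, 0.173 and 0 RPKM (limma adjusted p = 0.0449), had 14.4, 2.77 and 5.4 and 3.97, 14.2 and 0.516 RPKM in CD4 cells and an interaction of -2.82. The interleukin 2 receptor chain Il2rb had -0.98. Heat shock genes, lower in knockouts of both cell types (medians -0.95 and -0.98), had a median interaction of 0.29 (0.05 without both libraries of knockout animal 1, and -0.02 to 0.46 without single libraries), with Dnajb1 at 1.47 and Bag3 at -1.15. Cytosolic ribosomal protein genes had a median of 0.11 over 76 members, and -0.34 without both libraries of knockout animal 1. Among the enzymes of DNA methylation, Dnmt1, the maintenance methyltransferase, had -0.64 (-1.59 to 0.31) and Dnmt3a -0.42 (-1.59 to 0.75), and the 7 tested members had 0 at an unadjusted p under 0.05.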

How the data were processed

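Sorted cells gave stranded total RNA libraries (SMARTer Pico), per the labels' protocols. For 25639 genes the authors deposited counts and RPKM of the CD4 libraries in one table and RPKM alone of the CD8 libraries in another, per the file headers. GRCm38 and mm10 are the builds listed per the submitters' processing notes. Aligner and counter: not given in the sources used here. There were 18 further per-sample columns that were not used. The tables were joined by gene name, although the authors had normalized them separately. CD8 reads were recovered from the RPKM with gene lengths implied by the CD4 counts: of 134905 values, 100% were whole within 0.01. These reads, available for 20159 genes, were used for depth and for alternative tests. Most low counts were even, as when a read pair adds 2, except in CD8 Vav1CreTet2KO replicate 1 (50.6% odd), whose total may be in another unit.

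The interaction and the effect in each cell type were fitted with limma 3.58.1 (R 4.3.3, trend) on log2(RPKM + 1) over 12 libraries, with Benjamini-Hochberg adjustment at 0.05. Fold changes on this scale understate the change of low genes. Alternatives used edgeR 4.0.16 (filterByExpr, minimum count 10 and total 15), DESeq2 1.42.0 and voom on the recovered reads, pseudocounts of 0.1 and 5, other filters and scalings, blocks and left-out libraries. The library names tie each CD8 library to the CD4 library of the same animal. Same-animal deviations from group means correlated at 0.104, 0.0767 and 0.0285 in controls and 0.165, -0.0652 and 0.341 in knockouts across genes, and the consensus correlation of a block was 0.17. Replicates were separate animals. The scripts were tested on simulated data.

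The groups and 36 gene lists were chosen with earlier results of these data known. Named genes were Tet2, the 24 smallest interaction p-values, up to 3 members per list by p, and the 6 largest called effects per cell type (CD4 cells had none). Gene models, pseudogenes and receptor segments were left out, and genes chosen after seeing values are marked so. One gene that the rule names is not reported here.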

Additional observations from a re-analysis of the deposited data

Results flagged for a closer look

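The libraries of the 2 genotypes did not overlap in either cell type, and lay on opposite sides, for the following named genes. The difference between the cell types was tested by the interaction in limma, which none of them passed after adjustment, and 46 of all tested genes (0.437%) had this form. Lower in knockout CD8 cells and higher in knockout CD4 cells were Nrn1 (interaction -4.37, adjusted p = 0.397), Pacsin1 (-2.22, adjusted p = 0.603), Nkg7 (-1.72, adjusted p = 0.609) and Cdc20 (-2.55, adjusted p = 0.781). Higher in knockout CD8 cells and lower in knockout CD4 cells were Naaa (3.41, adjusted p = 0.671), Gpatch3 (2.52, adjusted p = 0.609), Map2k6 (2.23, adjusted p = 0.641), Zfp36l1 (1.56, adjusted p = 0.671), Samhd1 (1.53, adjusted p = 0.671), Nr4a1 (1.34, adjusted p = 0.801) and Junb (1.04, adjusted p = 0.852). Of the receptor V segments, Trbv2 (-4.10, adjusted p = 0.531) was of the first kind, and Trav5-4 (3.31, adjusted p = 0.603) and Trbv29 (3.54, adjusted p = 0.609) of the second. None of the 14 changed sign under any of the alternatives in which it was tested. Non-overlap in opposite directions fixes that sign in advance when libraries are left out or the pseudocount is changed. The kept signs are therefore given as a description.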

How the results depend on the processing

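The interaction had 0 genes past the threshold in 22 of 28 alternatives, among them voom, array weights, the correlation by animal, the block by replicate number and each of the 12 fits without 1 library. It had 46 with DESeq2 on recovered reads, and 1 each with edgeR on recovered reads, no filter, a pseudocount of 0.1, quantile normalization and the replicate block by animal (Klrc1, Hoxa2, Klrc1, Cib2 and Penk in that order). For the effect in each cell type, calls are given as a percent of the genes tested, since their number differed between alternatives. The Vav1CreTet2KO effect in CD8, at 0.74%, was 2.46% with DESeq2, 0.379% with edgeR, 4.15% with voom, 1.13% with RPKM divided by size factors, 1.57% with all 19 libraries, 2.44% with array weights, 2.15% after quantile normalization, 0.368% without both libraries of knockout animal 1, 0.177% with no filter and 0% with a pseudocount of 0.1. With a mean of 5 RPKM required it was 0.571%, or 28 genes in place of 78, of fewer tested. The Vav1CreTet2KO effect in CD4, at 0%, was 2.13% with DESeq2, 0.0594% with edgeR, 0.00743% with voom, 1.69% with all 19 libraries, 0.0871% without both libraries of knockout animal 1, 0.0334% with no filter, 0.00949% with a pseudocount of 0.1, 0.104% after quantile normalization and 0.019% with the replicate block by number. Leaving out 1 library gave 0% to 1.66% in CD8 cells: 0%, 0.00963% and 0.376% without the CD8 library of control 1, 2 or 3, 0.0192% and 0.344% without that of knockout 1 or 3, 0.481% and 0.462% without the CD4 library of control 1 or 2, and 1.66% without that of knockout 1. It gave 0% to 4.79% in CD4 cells: 4.79% without the CD4 library of knockout 3, 0.0193% without that of control 2 and 0.00955% without that of knockout 1. The causes were not tested. Choosing genes by a small interaction p or after seeing their values itself favours a kept sign, so the next count is a description. Of 89 genes named with an interaction, 85 kept their sign under every alternative in which they were tested. The exceptions were Mrc2 (2.88 with edgeR and 0.94 with DESeq2), Tyrobp (-0.15 to 1.16 without single libraries, with -0.11, -0.06, -0.15 and -0.13 without CD4 control 3, CD4 knockout 3, CD8 control 1 or CD8 knockout 1) Pdcd1 (-1.04 to 0.029, with 0.029 without CD8 knockout 3) and Foxp3 (-0.25 to 1.22 without single libraries, with -0.25 without CD4 knockout 1, -0.31 without both libraries of that animal, -0.80 with edgeR, -0.78 with DESeq2, -1.03 with voom and -0.16 with a pseudocount of 0.1). The 707866 reads of the shallowest library limit all low CD4 values.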

Other observations

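V segments of the T cell receptor, which the rule for named genes left out, were among the genes with the smallest interaction p. Of 83 tested V segments, 10 had an unadjusted p under 0.05 (12%, against 5.53% of all tested genes), 5 higher and 5 lower, and none passed limma's test with Benjamini-Hochberg adjustment. Among the 25 smallest p-values of all genes 3 were V segments, chosen here after their values were seen. Trbv2 stood at 3.06, 1.05 and 8.28 RPKM in CD8 controls, 0, 0.168 and 0.865 RPKM in CD8 knockouts, 1.32, 4.41 and 6.24 RPKM in CD4 controls and 24.8, 41.1 and 10.8 RPKM in CD4 knockouts (interaction -4.10). Trbv29 had 6.17, 1.06 and 4.56, 14.6, 6.2 and 9.84, 5.64, 7.08 and 8.81 and 0, 0 and 3.93 RPKM in the same order of groups (3.54), and Trav5-4 an interaction of 3.31. In the shallow CD4 library of knockout animal 1, 3 reads would give 3.33 RPKM for Trbv29 and 3.2 RPKM for Trav5-4. A value of 0 there says little. V segments share sequence, so that reads can be split between them.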
